A study of Mus musculus with 8 samples.

Results

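The Ikaros family is a group of 5 genes, Ikzf1 (Ikaros), Ikzf2 (Helios), Ikzf3 (Aiolos), Ikzf4 (Eos) and Ikzf5 (Pegasus), which were taken by name from the 27179 Entrez Gene identifiers of the count table. All 5 were found, and 4 passed the filter on low counts. The RNA came from sorted bone marrow progenitors at the pre-proB, proB and preB stages of early B lymphopoiesis in Erg fl/fl mice. Another group held the pre-proB stage of Rag1Cre T/+;Erg Δ/Δ animals (called Erg-deficient here), and each of the 4 groups had 2 biological replicates. Both Erg alleles were flanked by loxP sites in both genotypes before any deletion. Cre under control of Rag1 deletes the floxed part from lymphoid progenitors onwards, in T-lineage as well as B-lineage cells, and the Erg fl/fl mice had no Rag1Cre allele, so loss of Erg and presence of Cre cannot be told apart. The mice were 7 to 10 weeks old. All populations were gated as B220+ cells without IgM, IgD, NK1.1 and CD11c, and were separated by surface markers that included CD43 and CD24.

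Ikaros family proteins are zinc finger transcription factors. In most of them a group of fingers near the N-terminus binds DNA, and a pair of fingers at the C-terminus joins family members to each other as homodimers or heterodimers. Bound proteins recruit the nucleosome remodelling and deacetylase (NuRD) complex and other corepressors, and can also take part in activation. Ikaros is required for specification of the B-cell lineage, Aiolos acts in later B-cell precursors and mature B cells, and Helios is known from stem cells and T cells. Eos acts in regulatory T cells, and Pegasus differs from the others in its DNA-binding fingers.

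What makes these genes a family can be read from the finger closest to the C-terminus, part of the dimerization region. Of the 6 fingers that a C2H2 pattern found in Ikzf1 it is the longest. On average 73.6% of its bases were the same in the closest finger of each other member, against 66.3% to 79.4% for the rest, with the highest share in the other finger of the C-terminal pair. Its coding sequence is shown 5′ to 3′ on the coding strand, from the GENCODE M21 transcripts of GRCm38 (mm10), with capitals marking each base that is the same as in Ikzf1.
Ikzf1: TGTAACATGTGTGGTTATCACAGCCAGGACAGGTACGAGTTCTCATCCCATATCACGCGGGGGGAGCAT
Ikzf2: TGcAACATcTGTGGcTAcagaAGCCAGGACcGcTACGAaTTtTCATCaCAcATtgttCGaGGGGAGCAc
Ikzf3: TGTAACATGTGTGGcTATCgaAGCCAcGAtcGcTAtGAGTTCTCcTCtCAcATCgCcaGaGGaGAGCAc
Ikzf4: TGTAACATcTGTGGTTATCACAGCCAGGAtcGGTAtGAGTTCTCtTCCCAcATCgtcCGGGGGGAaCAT
Ikzf5: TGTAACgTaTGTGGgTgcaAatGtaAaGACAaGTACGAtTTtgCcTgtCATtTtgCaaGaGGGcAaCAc
Over these 69 bases, Ikzf4 was the same as Ikzf1 at 85.5%, Ikzf3 at 75.4%, Ikzf2 at 72.5% and Ikzf5 at 60.9%. Each stretch is exonic and coding, in the last exon of its gene (exon 8 of 8 in Ikzf1 to Ikzf4 and exon 4 of 4 in Ikzf5). The positions are chr11:11769495-11769563 (plus strand) for Ikzf1, chr1:69538780-69538848 (minus strand) for Ikzf2, chr11:98467004-98467072 (minus strand) for Ikzf3, chr10:128634060-128634128 (minus strand) for Ikzf4 and chr7:131391649-131391717 (minus strand) for Ikzf5. In the transcripts compared, the likeness did not extend to whole reads. A single transcript matched to RefSeq, that with the longest coding sequence, was taken for each member, and other transcripts were not compared. Across the 10 pairs of members the longest run of identical bases was 32 bases (Ikzf2 and Ikzf4), and the reads were 100 bases long.

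The whole genes lie on chromosome 11 from 11684962 to 11772930 (Ikzf1), chromosome 1 from 69531207 to 69687351 (Ikzf2), chromosome 11 from 98464610 to 98546031 (Ikzf3), chromosome 10 from 128630839 to 128669671 (Ikzf4) and chromosome 7 from 131388649 to 131410518 (Ikzf5). Their Entrez Gene identifiers are 22778, 22779, 22780, 22781 and 67143 in that order. Ikzf5 overlaps Pstk, a kinase gene of selenocysteine tRNA on the opposite strand. The overlap is 4652 of 5721 exon bases when every annotated transcript is counted, and 0 of 4430 in the transcripts matched to RefSeq. Whether counting used strand is not given in the sources used here. Ikzf5 counts are therefore uncertain in this respect.

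Libraries held 15565381 to 18457632 counts. Erg itself stood at 69.1 and 25.3 CPM (counts scaled to a common library size after TMM normalization) at the pre-proB stage of Erg fl/fl mice (control pre-proB), and at 2.50 and 2.58 CPM in the Erg-deficient group. From pre-proB to proB cells 6 of 7 proB-like and 6 of 6 preB-like markers rose, where 36.2% of all genes tested were called higher. From proB to preB cells all 6 preB-like markers rose again, and of the proB-like markers 4 fell and 1, Rag1, rose, where 29.0% of all genes were called higher and 29.9% lower. The pre-proB libraries differed from them in further cell type markers. The 9 plasmacytoid dendritic-like markers summed to 13082 and 14299 CPM in control pre-proB and to 15313 and 15850 CPM in the Erg-deficient libraries, against 615 to 977 CPM in proB and preB cells, and none of them was at 0 in any group. Their part in the differences between stages described here was not tested. Erg fl/fl pre-proB replicate 1 also held more RNA of proB-like markers (1596 CPM over 7 genes) than replicate 2 (776 CPM). In bulk samples such as these, fewer expressing cells and less RNA per cell cannot be told apart.

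Across the 3 Erg fl/fl stages the members followed different courses. Ikzf3 rose at both steps, and its level in preB cells was 28.3-fold that in pre-proB cells. Ikzf2 fell at both steps, to 0.813% of its pre-proB level. Ikzf1 rose at both steps by much smaller factors, Ikzf5 was higher in preB cells than in both earlier stages, and Ikzf4 was close to the limit of detection throughout. Between genotypes, no tested member passed the test in pre-proB cells.

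**Figure D1:**
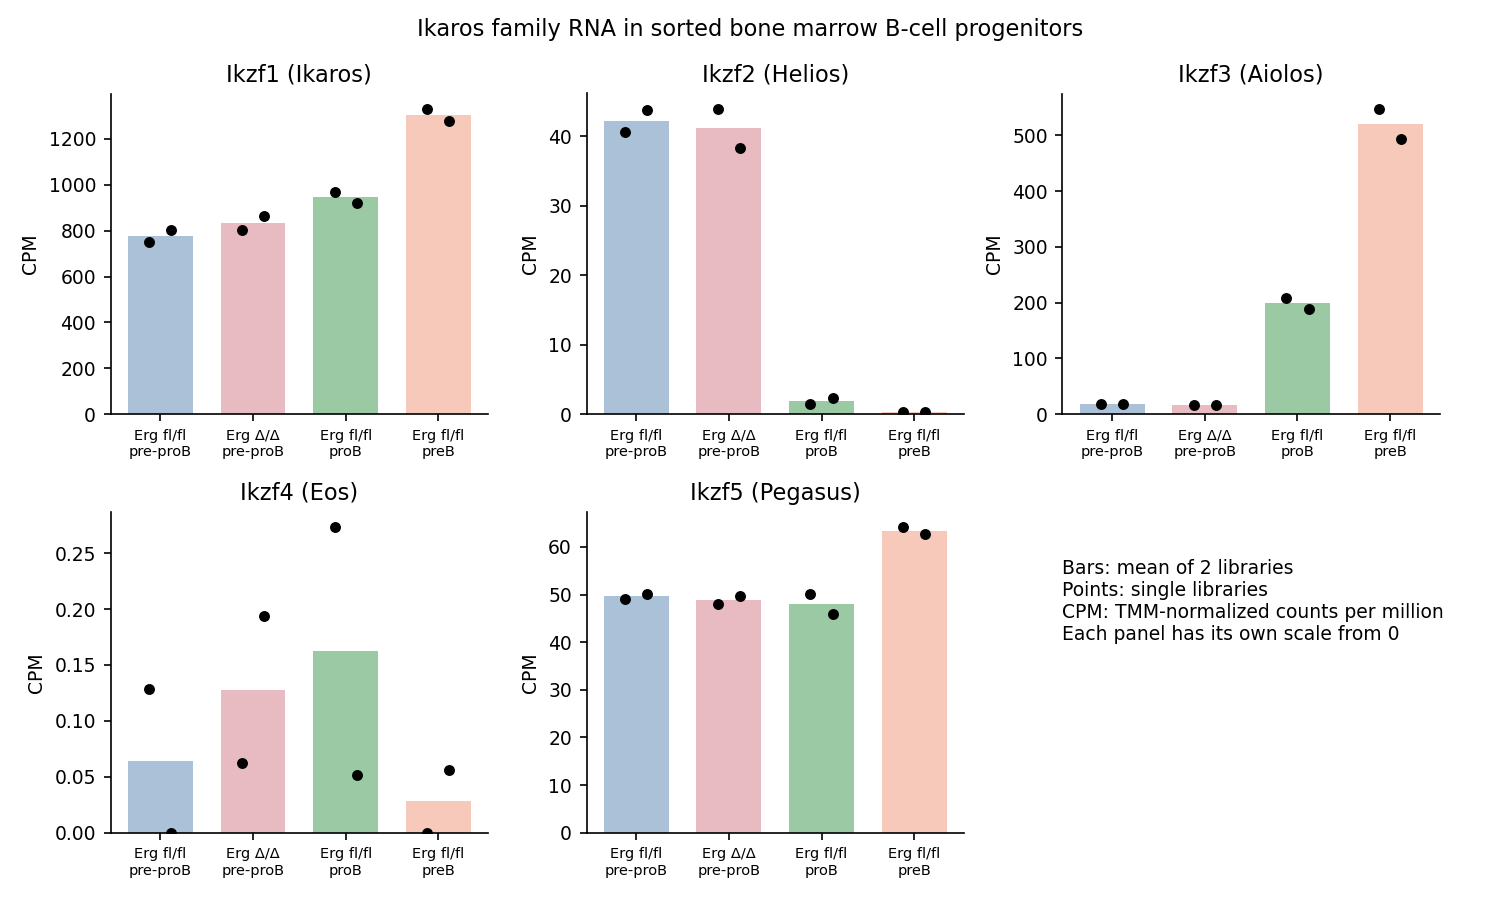
CPM of each family member on the y axis of its panel (linear, from 0) in the 4 groups on the x axis, with bars for the mean and points for the 2 single libraries. Ikzf3 reaches 547 and 493 CPM in preB cells, Ikzf2 is at 38.3 CPM or more in the 4 pre-proB libraries and at 2.31 CPM or less in the other 4, and the Ikzf4 panel spans less than 0.3 CPM.

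Ikzf1, which encodes the founding member of the family, had the highest level per exon length in every library. Erg fl/fl pre-proB libraries had 751 and 803 CPM, proB libraries 970.2 and 919 CPM, and preB libraries 1331 and 1277 CPM. The means were 777 ± 36.4, 944 ± 36.5 and 1304 ± 38.2 CPM (SD, n = 2 each). The stages did not overlap, and each stage was higher than the one before it. From pre-proB to proB cells Ikzf1 rose with a log2 fold change of 0.32 (SE 0.0740, adjusted p = 0.00438 by edgeR). Here and below, an adjusted p is that of the quasi-likelihood test in edgeR with Benjamini-Hochberg adjustment over all genes tested, and SE is the standard error. From proB to preB cells it rose by a further 0.47 on the log2 scale (SE 0.0739, adjusted p = 0.000757 by edgeR). This gave a difference between preB and pre-proB cells of 0.79 on the log2 scale (SE 0.0743, adjusted p = 1.84e-05 by edgeR). By size, the change from pre-proB to proB cells ranked 10052 among the 13650 genes tested, so changes of this size were common.

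Ikzf3, which encodes Aiolos, had 19.2 and 17.6 CPM in pre-proB cells. It had 208 and 189 CPM in proB and 547 and 493 CPM in preB cells. As means these were 18.4 ± 1.15, 199 ± 13.8 and 520.4 ± 38.1 CPM (SD, n = 2 each). The 3 stages were far apart relative to the spread of their replicates. The rise from pre-proB to proB cells was a log2 fold change of 3.47 (SE 0.0933, adjusted p = 1.24e-08 by edgeR). That from proB to preB cells was smaller, with a log2 fold change of 1.40 (SE 0.0787, adjusted p = 5.30e-06 by edgeR). Over both steps the log2 fold change was 4.87 (SE 0.0964, adjusted p = 2.81e-09 by edgeR). By size it ranked 602 among the 13650 genes tested.

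Ikzf2, which encodes Helios, went the opposite way. It had 40.7 and 43.8 CPM in pre-proB cells (1355 counts over both libraries), 1.47 and 2.31 CPM in proB cells (72 counts) and 0.349 and 0.338 CPM in preB cells (12 counts). Means were 42.3 ± 2.22, 1.89 ± 0.594 and 0.343 ± 0.00760 CPM (SD, n = 2 each). The lowest pre-proB library was far above the highest proB library, and both proB libraries were above both preB libraries. Ikzf2 fell from pre-proB to proB cells with a log2 fold change of -4.43 (SE 0.178, adjusted p = 9.87e-08 by edgeR). It fell again from proB to preB cells with a log2 fold change of -2.44 (SE 0.342, adjusted p = 0.000418 by edgeR). Over both steps the log2 fold change was -6.87 (SE 0.235, adjusted p = 3.94e-08 by edgeR), which ranked 234 by size among the 13650 genes tested. The preB value rests on few reads. Its 12 counts amount to 0.348 CPM of the summed library totals, with an exact 95% Poisson interval of 0.180 to 0.608 CPM that covers counting error only.

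Some lists of markers of other cell types also fell with Ikzf2 from pre-proB to proB cells, and others did not. In this step 36.8% of all genes were called lower and 36.2% higher. Of 10 NK-like markers 9 fell. Of 8 myeloid-like markers 3 rose and 2 fell, and of 8 plasma cell-like markers 3 rose and 3 fell. Of 4 erythroid-like markers tested 3 rose and 0 fell, and of 6 mature B-like markers 4 rose and 0 fell. All 9 plasmacytoid dendritic-like markers fell in this step. From proB to preB cells 29.9% of all genes were called lower and 29.0% higher. Of the 9 plasmacytoid dendritic-like markers 6 then fell and Ly6d rose, from 114 and 135 to 430.2 and 554 CPM. With Ly6d included, their sum went from 615 and 671 to 839 and 977 CPM. Ly6d was the only one of them called higher, and the median log2 fold change over the 9 was -1.13. For Siglech, a surface receptor of plasmacytoid dendritic cells and 1 of those that fell at both steps, the Erg fl/fl pre-proB libraries had 3856 and 3825 CPM, the proB libraries 46.5 and 56.5 CPM, and the preB libraries 11.2 and 11.5 CPM. Of the 5 early progenitor-like markers, Flt3, Cd34, Ly6a and Meis1 fell from pre-proB to proB cells, and Kit rose, from 28.2 and 22.9 to 31.1 and 38.6 CPM. All 5 fell from proB to preB cells. Of the 9 T-like markers 8 fell from pre-proB to proB cells and Lat rose, from 20.0 and 15.1 to 25.1 and 26.4 CPM, while 6 fell from proB to preB cells. The Cd3d, Cd3e and Cd3g genes of the T-cell receptor complex gave no more than 6.50 CPM each in control pre-proB libraries. All 9 T-like and all 5 early progenitor-like markers were at 0.5 CPM or more in both of these libraries. Whether Ikzf2 RNA came from cells with these markers was not tested.

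Ikzf5, which encodes Pegasus, stood at 49.0 and 50.2 CPM in the pre-proB libraries, 50.0 and 46.0 CPM in the proB libraries, and 64.1 and 62.8 CPM in the preB libraries. Its means were 49.6 ± 0.832, 48.0 ± 2.86 and 63.4 ± 0.958 CPM (SD, n = 2 each). The pre-proB and proB libraries overlapped, and both preB libraries were above them. The difference between proB and pre-proB cells was -0.01 on the log2 scale, with a 95% interval of -0.17 to 0.14 and an adjusted p of 0.859 by the edgeR test. Ikzf5 rose from proB to preB cells with a log2 fold change of 0.41 (SE 0.0655, adjusted p = 0.000847 by edgeR). Against pre-proB cells the preB level was higher by 0.40 on the log2 scale (SE 0.0660, adjusted p = 0.000664 by edgeR). Pstk, the gene on the opposite strand, had 149 and 151 counts at the pre-proB stage, 127 and 157 at the proB stage and 118 and 105 at the preB stage, whereas Ikzf5 had 1590, 1810 and 2217 counts over both libraries of these stages.

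Ikzf4, which encodes Eos, had 13 counts in all 8 libraries together. Erg fl/fl pre-proB libraries had 2 and 0 counts, proB libraries 5 and 1, preB libraries 0 and 1, and Erg-deficient libraries 1 and 3. The largest of these group sums, 6 counts in proB cells, is 0.167 CPM with an exact 95% Poisson interval of 0.0612 to 0.363 CPM. That interval overlaps those of the other 3 groups, and a difference was not detectable at this depth. No library reached the 0.5 CPM of the filter, so Ikzf4 entered none of the tests. In fits without that filter its adjusted p by edgeR lay between 0.307 and 0.844 over the 4 comparisons.

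Of the 4 members tested, 3 were called from pre-proB to proB cells (2 higher, 1 lower), where 73.0% of all genes tested were called, 36.2% higher and 36.8% lower. All 4 were called from proB to preB cells (3 higher, 1 lower), where 58.9% of all genes were called, 29.0% higher and 29.9% lower. All 4 were also called between preB and pre-proB cells (3 higher, 1 lower), with 70.7% of all genes called, 36.5% higher and 34.1% lower. A call between these stages was common, so the count of members called says little. By the size of the change from pre-proB to proB cells, Ikzf2 ranked 432 and Ikzf3 806 among the 13650 genes tested. The 3 comparisons share libraries and are not independent of each other.

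**Figure D2:**
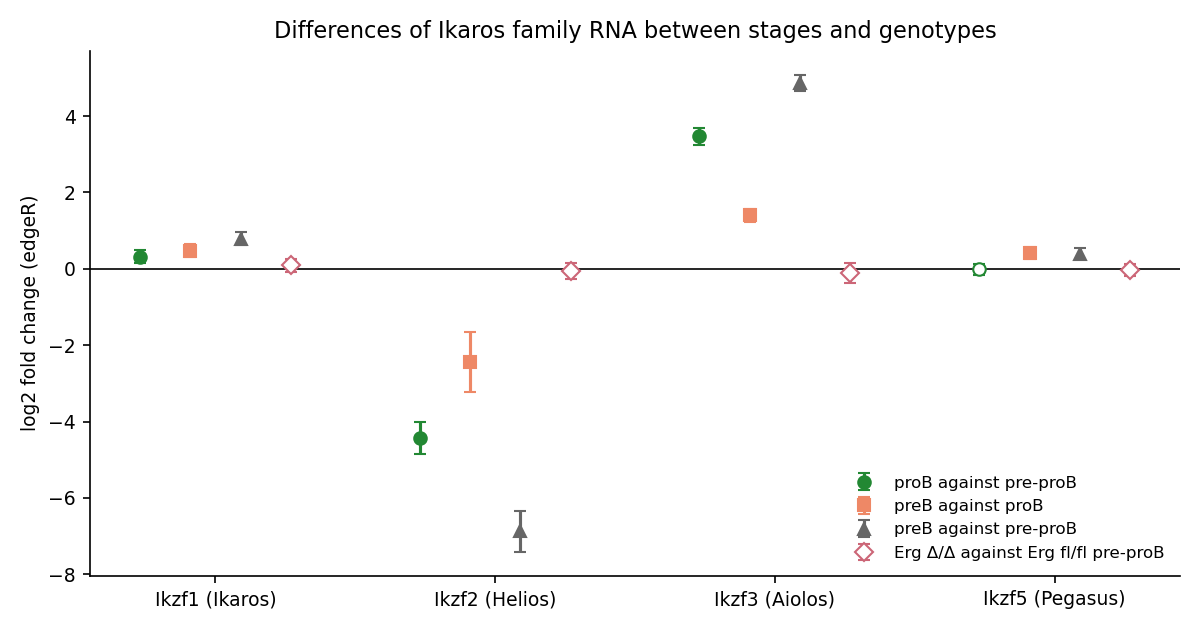
Log2 fold change (edgeR, y axis) of the 4 tested members (x axis) in the 4 comparisons, with bars for the 95% interval, filled symbols for an adjusted p below 0.05 and open symbols otherwise. Ikzf3 and Ikzf2 lie furthest from 0 in the comparisons of stages, at 4.87 and -6.87 between preB and pre-proB cells, and the 4 members lie between -0.10 and 0.09 between genotypes.

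The make-up of family RNA shifted between stages. To compare genes with each other, CPM were divided by the exon length of the transcripts matched to RefSeq. Summed over the family, the level per length was 171 ± 7.14 CPM per kb at the Erg fl/fl pre-proB stage, 248 ± 11.5 CPM per kb at the proB stage and 409 ± 18.04 CPM per kb at the preB stage (SD, n = 2 each). Ikzf1 made up 87.5% and 88.2% of that sum in the pre-proB libraries, 73.3% and 74.1% in proB and 61.1% and 62.4% in preB. Ikzf3 made up 3.16% and 2.72%, then 22.2% and 21.5%, and then 35.5% and 34.0%. The level of Ikzf1 per length was therefore 29.9-fold that of Ikzf3 in pre-proB cells, 3.37-fold in proB and 1.78-fold in preB cells. These ratios depend on the length used, and were 63.9-fold, 7.21-fold and 3.80-fold with the exons of every annotated transcript. Replicates differed by far less than the stages did in these shares, but an exact permutation test with 2 libraries against 2 has 0.333 as its smallest p.

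The minor members lost share. Ikzf5 went from 6.66% and 6.43% in pre-proB libraries to 4.41% and 4.32% in proB and 3.43% and 3.57% in preB. Ikzf2 made up 2.64% and 2.68% at the pre-proB stage, 0.0620% and 0.104% at the proB stage and 0.00891% and 0.00919% at the preB stage. In pre-proB cells Ikzf2 and Ikzf3 were near each other per length, at 4.55 ± 0.239 and 5.02 ± 0.314 CPM per kb (SD, n = 2 each). The shares depend on the gene length used, most of all for Ikzf3. With the exons of every annotated transcript (8754 in place of 3658 bases for Ikzf3), its mean share in preB cells was 20.1% in place of 34.7%, and Ikzf1 was at 76.2% in place of 61.7%. With those lengths Ikzf2 was above Ikzf3 in control pre-proB cells, at mean shares of 2.44% and 1.41%, so their order at that stage is not settled. The fall of the Ikzf1 share and the rise of the Ikzf3 share over the stages were seen with both lengths.

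**Figure D3:**
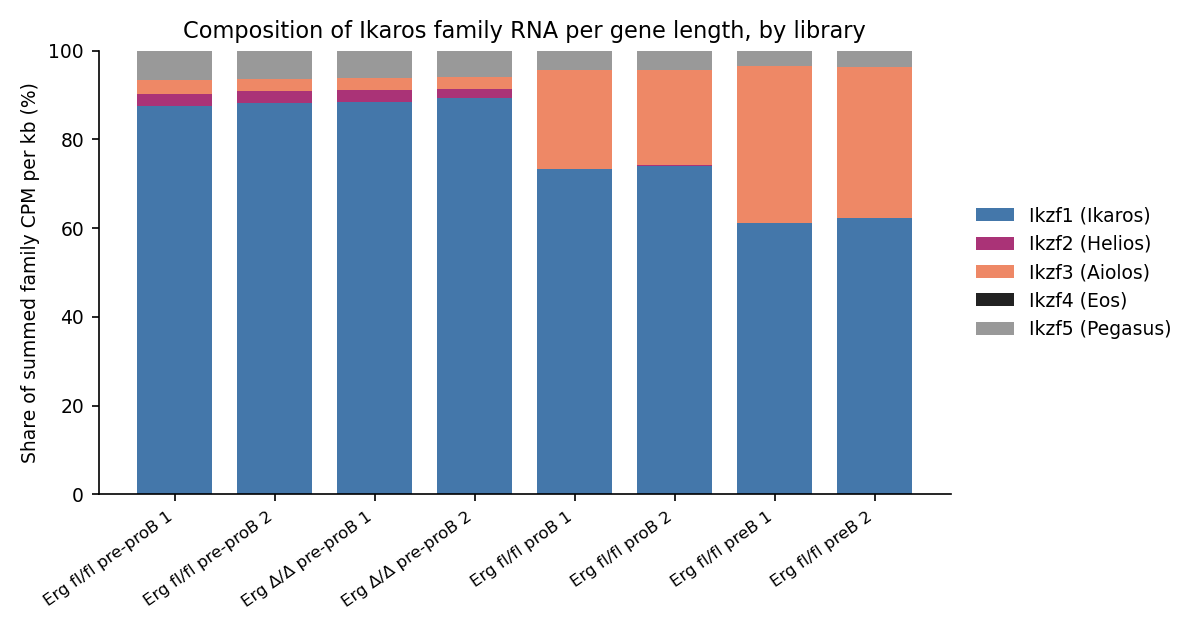
Share of each member in the summed family level (CPM per kb of exons, y axis, percent) in each of the 8 libraries (x axis). The Ikzf3 segment grows from between 2.54% and 3.16% in the 4 pre-proB libraries to 35.5% and 34.0% in preB, and the Ikzf2 segment is visible only in pre-proB libraries.

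The genotypes were then compared at the pre-proB stage, which both reach, to ask whether family RNA changed without Erg. Ikzf1 had 805 and 862 CPM in Erg-deficient cells, with a mean of 833 ± 40.3 CPM (SD, n = 2). Against Erg fl/fl the log2 fold change was 0.09 (95% interval -0.08 to 0.26, adjusted p = 0.669 by edgeR). Both Erg-deficient libraries were above both Erg fl/fl libraries, the lower of them by less than the gap between replicates.

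Ikzf2 had 44.0 and 38.3 CPM in Erg-deficient cells (mean 41.2 ± 3.99 CPM, SD, n = 2). Its log2 fold change was -0.05 (95% interval -0.26 to 0.16, adjusted p = 0.866, edgeR). The Erg fl/fl libraries fell between the Erg-deficient ones. Ikzf3 had 17.2 and 17.4 CPM (mean 17.3 ± 0.128 CPM, SD, n = 2), and its log2 fold change was -0.10 (95% interval -0.36 to 0.16, adjusted p = 0.759, edgeR). Both values were just below those of Erg fl/fl. Ikzf5 had 47.9 and 49.6 CPM (mean 48.8 ± 1.21 CPM, SD, n = 2), which overlapped with Erg fl/fl, and its log2 fold change was -0.04 (95% interval -0.19 to 0.12, adjusted p = 0.868, edgeR). Of the 4 members tested, 0 were called by edgeR, and 0 had an unadjusted p below 0.05. DESeq2 and limma-voom also called 0. Between genotypes 1.16% of the 13005 genes tested were called, 0.215% higher and 0.946% lower in Erg-deficient cells. The intervals leave room for differences of up to 0.36 on the log2 scale, the widest bound, which belongs to Ikzf3.

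The family sum per length was 182 ± 7.71 CPM per kb in Erg-deficient cells (SD, n = 2), of which Ikzf1 made up 88.5% and 89.2%, Ikzf2 2.69% and 2.21%, Ikzf3 2.67% and 2.54% and Ikzf5 6.14% and 5.99%. The Ikzf1 shares were both above those of the control pre-proB libraries, the Ikzf3 and Ikzf5 shares were both below, and the Ikzf2 shares overlapped. Of 10 NK-like markers 5 were called higher in Erg-deficient cells, where 0.215% of all genes tested were called higher. The NK-like list summed to 117 and 202 CPM (34.9 and 41.9 CPM in Erg fl/fl). T-like markers summed to 1446 and 806 CPM (639 and 794 CPM in Erg fl/fl), of which Cd4 alone gave 1214 and 623 CPM (474 and 614 CPM), and the median log2 fold change over the 9 was 0.03. None of the NK-like and T-like markers was at 0. Called lower were 6 of 7 proB-like markers, Erg itself among them, and 2 of 6 preB-like markers, where 0.946% of all genes were called lower. Of the other lists, 2 of 7 plasma cell-like, 1 of 5 mature B-like and 1 of 7 myeloid-like markers tested were called lower. The plasma cell-like list summed to 637 and 739 CPM in Erg-deficient libraries (993 and 1010 CPM in Erg fl/fl). The part of these lists in the values of the family was not tested.

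In order of level, Ikzf1 was lowest in the Erg fl/fl pre-proB group, followed by the Erg-deficient group, proB and preB, with the first pair not told apart by the test. For Ikzf3 the Erg-deficient group was lowest, followed by the Erg fl/fl groups in the order of their stages, again with the first pair not told apart. Ikzf2 was highest in the Erg fl/fl pre-proB group, then in the Erg-deficient, proB and preB groups, with that same pair not told apart. For Ikzf5 the preB level was the highest and the other 3 groups lay between 48.0 and 49.6 CPM. Erg-deficient cells were not tested against proB or preB cells.

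Ikzf3 was then set against genes that mark proB cells. In Erg fl/fl pre-proB libraries Ikzf3 was at 9.66% and 8.84% of its mean proB level. The 6 proB-like markers other than Erg (Ebf1, Pax5, Vpreb1, Igll1, Dntt and Rag1) had a median of 41.5% in replicate 1 and 14.1% in replicate 2 on the same scale. Replicate 1 exceeded replicate 2 by a median of 2.85-fold over these markers (range 1.59 to 3.45), whereas Ikzf3 differed 1.09-fold. Ikzf3 thus did not follow the spread in proB-like RNA between these replicates.

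In Erg-deficient pre-proB libraries the median of the same 6 markers was 0.238% and 0.380% of the proB level, with Dntt, which encodes terminal deoxynucleotidyl transferase, at 34.6% and 47.1%. Ikzf3 was at 8.65% and 8.74%. As a percentage of the Erg fl/fl pre-proB mean, the markers had a median of 1.32% (range 0.985% to 59.1%). Ikzf3 was at 94.0%, Ikzf1 at 107%, Ikzf2 at 97.4% and Ikzf5 at 98.3%. Ikzf3 RNA was therefore present at about its control level in bulk libraries with little RNA of Ebf1, Pax5, Vpreb1 and Igll1. Which cells of these libraries held the Ikzf3 RNA was not tested.

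**Figure D4:**
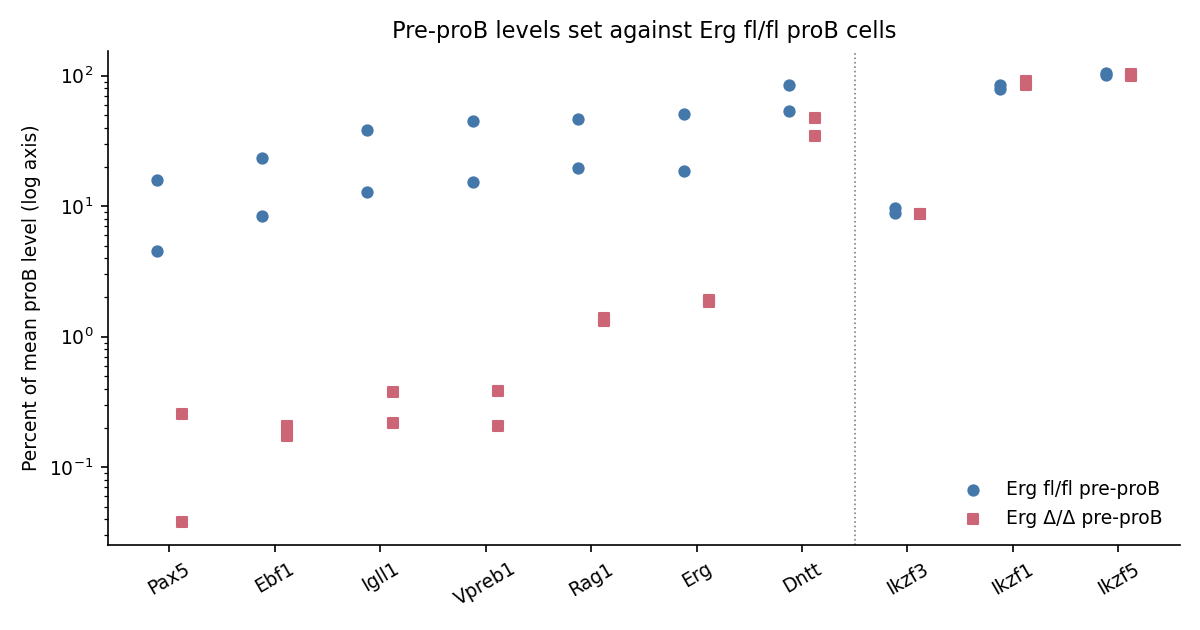
Level in each pre-proB library as a percentage of the mean Erg fl/fl proB level (y axis, log scale) for proB-like markers including Erg (left of the dotted line) and 3 family members (right), with circles for Erg fl/fl and squares for Erg Δ/Δ libraries. The 4 points of Ikzf3 lie between 8.65% and 9.66%, and those of Pax5 between 0.0379% and 15.8%.

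The genes whose course was most like that of Ikzf2 or Ikzf3 were sought over all 8 libraries, among 13482 genes. Likeness was the root mean square difference of log2 CPM after each gene was centred on its own mean. For Ikzf2 the 3 closest were Lrp8, a lipoprotein receptor (0.131 on the log2 scale), Fads3, of the fatty acid desaturase family (0.181), and Slco3a1, an organic anion transporter (0.196). Lrp8 stood at 537 and 586 CPM in the control pre-proB libraries, 22.2 and 29.8 CPM in the proB libraries, 5.46 and 6.99 CPM in the preB libraries and 684 and 544 CPM in the Erg-deficient libraries. Like Ikzf2, it was high in both pre-proB groups, far lower in proB and lowest in preB libraries. For Ikzf3 the closest was Rapgefl1 (0.171), at 6.93 and 5.65 CPM in the control pre-proB libraries, 53.5 and 47.6 CPM in the proB libraries, 163 and 149 CPM in the preB libraries and 5.62 and 4.84 CPM in the Erg-deficient libraries. Next were the immunoglobulin heavy chain V segment Ighv1-36 (0.231) and Rasl10a, a Ras-like gene (0.235), neither of which exceeded 5 CPM in any library. Both were at 0.0642 CPM or less in every pre-proB library, so their likeness to Ikzf3 there rests on almost no reads. Ikzf1 and Ikzf5 varied too little over the groups (0.75 and 0.40 on the log2 scale) for the measure to be used.

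The NuRD complex, the main corepressor that Ikaros and Aiolos recruit, was described by 13 subunit genes, all of which passed the filter. From pre-proB to proB cells 10 rose and 1 fell, where 36.2% of all genes tested were called higher and 36.8% lower. The median log2 fold change was 0.37 against 0.00 over all genes tested. The largest rise was that of Rbbp4, a histone-binding subunit, from 268 and 274 to 664 and 663 CPM (log2 fold change 1.33, adjusted p = 2.93e-07 by edgeR). Chd4, the ATP-dependent remodeller of the complex, rose from 457 and 462 to 668 and 642 CPM (log2 fold change 0.55, adjusted p = 0.000185 by edgeR). Mta3 was the gene that fell, from 90.9 and 88.9 to 63.2 and 63.2 CPM (log2 fold change -0.47, adjusted p = 6.99e-05 by edgeR).

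From proB to preB cells most NuRD genes fell, while Ikzf1 and Ikzf3 rose further. Of the 13, 1 rose and 9 fell, where 29.0% of all genes were called higher and 29.9% lower. The median log2 fold change was -0.24 against 0.00 over all genes. Mta1 fell from 96.2 and 97.1 to 48.6 and 44.5 CPM (log2 fold change -1.05, adjusted p = 8.62e-06 by edgeR), and Chd4 fell by 0.24 on the log2 scale (adjusted p = 0.0239 by edgeR). Gatad2b was the gene that rose, by 0.32 on the log2 scale (adjusted p = 0.0168 by edgeR). Without proB replicate 2 the number of NuRD genes called in this comparison was 6 in place of 10. Between preB and pre-proB cells 8 of the 13 were higher and 2 lower (36.5% and 34.1% of all genes). Between genotypes 0 of 13 were called by edgeR, with a median of -0.02, where 1.16% of all genes were called (0 had an unadjusted p below 0.05, and DESeq2 and limma-voom also called 0).

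Other corepressor genes moved apart from each other. Ctbp2, a cofactor of Ikaros, fell at both steps, from 7.64 and 7.11 CPM in pre-proB to 3.82 and 4.63 in proB and 0.756 and 1.07 CPM in preB cells (log2 fold changes -0.77 and -2.19, adjusted p = 0.00853 and 0.000156 by edgeR). Its paralogue Ctbp1 had 248 and 261, 306 and 298, and 328 and 330 CPM. Sin3a, a scaffold of histone deacetylase complexes, rose from 147 and 154 CPM in pre-proB to 213 and 214 CPM in proB cells (log2 fold change 0.54, adjusted p = 4.02e-05 by edgeR). Of the 4 genes of this list, 2 were higher and 2 lower in proB than in pre-proB cells, 1 was higher and 1 lower in preB than in proB cells, and 2 were higher and 1 lower in preB than in pre-proB cells. Over all genes 73.0%, 58.9% and 70.7% were called in these comparisons, so the counts say little about the list. Leaving out proB or preB replicate 2 gave 1 call in place of 2 in the comparison of preB with proB cells. Between genotypes edgeR, DESeq2 and limma-voom each called 0 of 4, where 1.16% of all genes were called (0 at an unadjusted p below 0.05 by edgeR).

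The cereblon ubiquitin ligase degrades Ikaros and Aiolos in the presence of thalidomide analogues. Crbn, its substrate receptor, stood at 56.3 and 52.8 CPM in the pre-proB, 49.4 and 53.5 CPM in the proB and 64.9 and 68.5 CPM in the preB libraries. The pre-proB and proB libraries overlapped, and Crbn rose from proB to preB cells (log2 fold change 0.38, adjusted p = 0.00193 by edgeR). Cul4b, a scaffold of the ligase, rose from 81.2 and 77.7 CPM in pre-proB to 135 and 136 CPM in proB cells (log2 fold change 0.81, adjusted p = 2.62e-06 by edgeR). Of the 5 genes of the ligase, 3 were higher and 0 lower in proB than in pre-proB cells, 1 was higher and 2 lower in preB than in proB cells, and 3 were higher and 0 lower in preB than in pre-proB cells. These 3 calls of 5 (60.0%) in each comparison compare with 73.0%, 58.9% and 70.7% called over all genes, so the counts say little about the ligase. Between genotypes, where 1.16% of all genes were called, 0 of 5 were called by edgeR, DESeq2 or limma-voom (0 at an unadjusted p below 0.05 by edgeR).

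**Figure D5:**
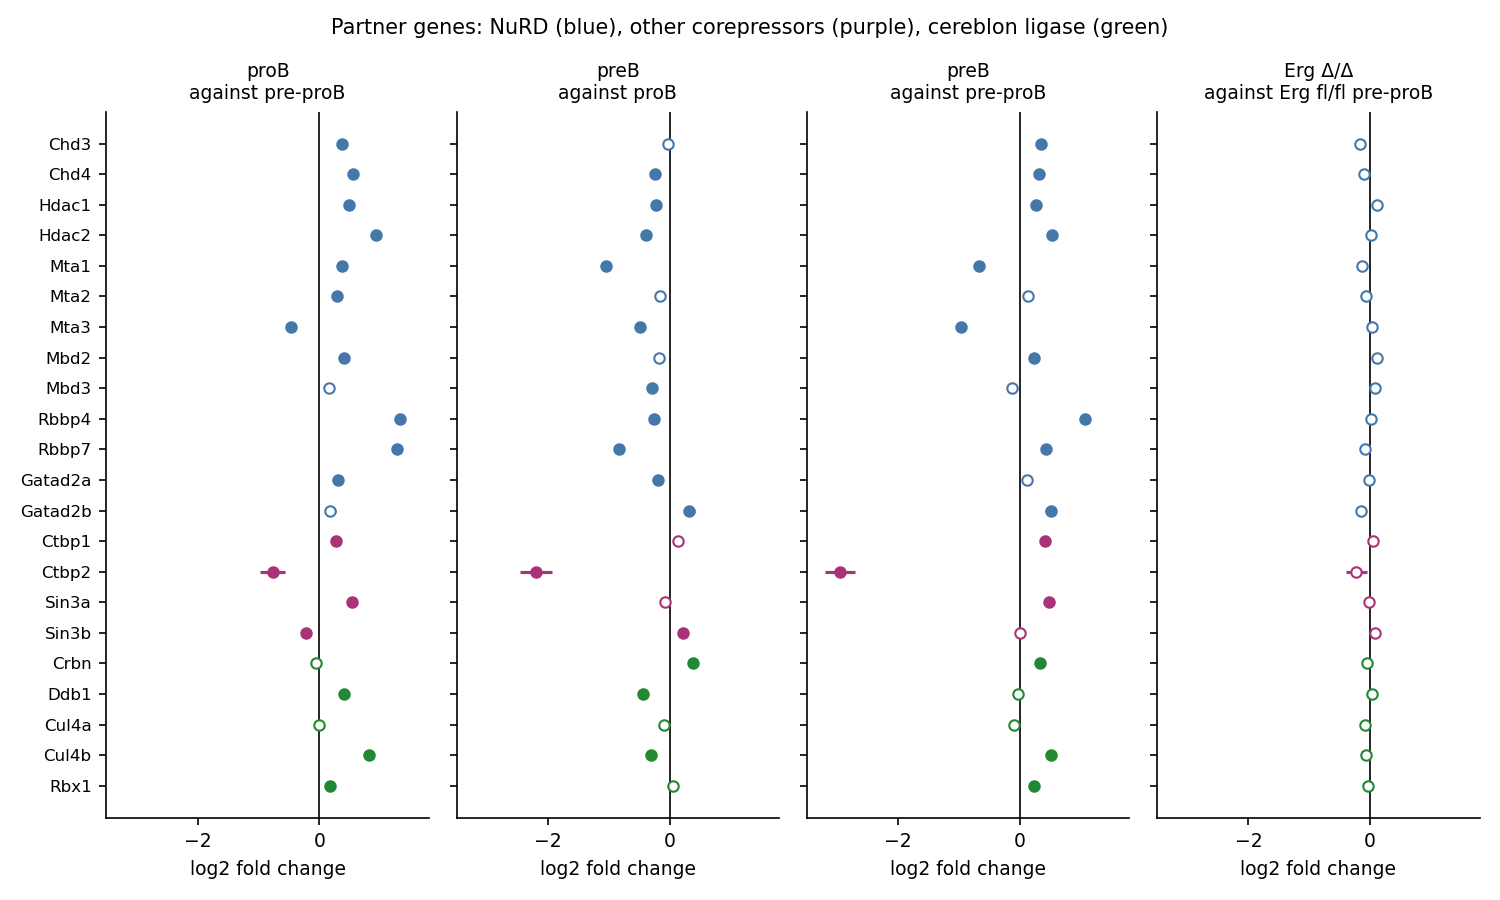
Log2 fold change (x axis, edgeR, bars for the standard error) of NuRD, other corepressor and cereblon ligase genes (y axis) in the 4 comparisons, with filled points for an adjusted p below 0.05. Most NuRD genes are right of 0 in proB against pre-proB cells (median 0.37) and left of 0 in preB against proB cells (median -0.24), and all points are open between genotypes.

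A list of 18 B-cell precursor genes that Ikaros or Aiolos is known to bind or regulate was also examined. From pre-proB to proB cells 13 were higher and 1 was lower (36.2% and 36.8% of all genes), with a median log2 fold change of 1.42 against 0.00 over all genes tested. Myc rose from 20.5 and 14.4 to 168 and 175 CPM (log2 fold change 3.34, adjusted p = 1.08e-07 by edgeR). Flt3, a cytokine receptor of early progenitors, fell from 502 and 579.5 to 20.7 and 27.6 CPM (log2 fold change -4.45, adjusted p = 5.36e-08 by edgeR). The direction of most of these genes in this step was that of Ikzf1 and Ikzf3. Whether Ikzf1 or Ikzf3 had a part in these changes was not tested. The list shares Igll1, Vpreb1, Dntt and Rag1 with the proB-like markers.

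From proB to preB cells, where Ikzf1 and Ikzf3 rose again, the list divided into 7 genes that were higher and 8 that were lower, with a median log2 fold change of 0.10, where 29.0% of all genes were called higher and 29.9% lower. Igll1 and Vpreb1, the surrogate light chain genes of the pre-B-cell receptor, fell from 685 and 621 to 103 and 155 CPM and from 436 and 404 to 60.4 and 98.7 CPM. Their log2 fold changes were -2.33 and -2.39 (adjusted p = 0.00147 and 0.00141 by edgeR). Genes of cell cycle entry fell with them. Myc fell to 20.1 and 23.6 CPM (log2 fold change -2.97, adjusted p = 2.81e-06 by edgeR), Ccnd2 from 261 and 264 to 66.8 and 70.0 CPM (log2 fold change -1.93, adjusted p = 1.19e-06 by edgeR) and Ccnd3 from 917 and 963 to 580.0 and 593 CPM (log2 fold change -0.67, adjusted p = 0.000110 by edgeR).

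Cdkn1b, an inhibitor of cyclin-dependent kinases, went the other way in this step, from 125 and 116 to 234 and 243 CPM (log2 fold change 1.00, adjusted p = 1.66e-05 by edgeR). Dntt fell from 840.1 and 859 to 72.3 and 147 CPM (log2 fold change -2.95, adjusted p = 0.000103 by edgeR), and of the 18 genes Rag1, the recombinase, rose most, from 660 and 562 to 1854 and 1916 CPM (log2 fold change 1.63, adjusted p = 0.00204 by edgeR). Between preB and pre-proB cells 10 of the 18 were higher and 3 lower (36.5% and 34.1% of all genes).

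Between genotypes, where no tested family member was called, 5 of the 18 genes were called and all 5 were lower in Erg-deficient cells, with 0.946% of all genes called lower. Igll1 went from 249 and 84.7 CPM with Erg to 1.44 and 2.45 CPM without it (log2 fold change -6.44, adjusted p = 0.0178 by edgeR). Vpreb1 went from 188 and 64.4 CPM with Erg to 0.875 and 1.61 CPM without it (log2 fold change -6.68, adjusted p = 0.0178 by edgeR). The smallest called difference was that of Myc, from 20.5 and 14.4 to 6.25 and 5.81 CPM (log2 fold change -1.55, adjusted p = 0.0293 by edgeR). Rag1 and Rag2 were the other 2, with log2 fold changes of -4.63 and -3.40. Igll1, Vpreb1 and Rag1 are also proB-like markers, a list of 7 genes that summed to 308 and 416 CPM in Erg-deficient and to 1596 and 776 CPM in control libraries, and the part of that difference in these calls was not tested. The log2 fold changes of the other 13 lay between -1.06 (Cd79b) and 0.12 (Il7r). Over all 18 the median was -0.37, against 0.01 over all genes, and 11 of the 18 had an unadjusted p below 0.05. These calls depended on the libraries kept, since leaving out either Erg-deficient library gave 0 of 18 and leaving out Erg fl/fl pre-proB replicate 2 gave 9. DESeq2 called 8 of the 18, and limma-voom called 0.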

How the data were processed

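RNA was sequenced as 100 bp paired-end reads from 4 sorted populations, with 2 replicates each. The authors called bases with CASAVA 1.8.2, trimmed adapters with Trim Galore, aligned to GRCm38 (mm10) with STAR and counted per Entrez gene with featureCounts. They deposited whole-number counts without normalization. For strand use and multi-mapping reads, the setting is not given in the sources used here. Symbols came from RefSeq for 25275 of 27179 identifiers and from GENCODE for 18. The 1886 left without a symbol hold 0.571% of counts and stayed in.

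Groups were taken from the labels. The 6 Erg fl/fl libraries and the 4 pre-proB libraries were fitted separately with edgeR 4.0.16 in R 4.3.3 (legacy quasi-likelihood, TMM, a minimum of 0.5 CPM in 2 libraries of a fit, Benjamini-Hochberg adjustment, called below 0.05). The replicates of each group differed by more than counting noise (chi-square per degree of freedom 3.82 to 8.29). At these depths 3 counts equal 0.163 to 0.193 CPM. The procedure was tested on simulated counts with 200 genes changed. For proB against pre-proB cells it called 100 of 100 genes changed by 3 on the log2 scale and 93 of 100 changed by 1. For the genotypes it called 100 of 100 and 89 of 100. In each simulation 28 unchanged genes were also called, a larger part of the calls than the 0.05 of the threshold. Standard errors were obtained from the log2 fold change and the F statistic, as their ratio after taking the root of F. The family and the gene lists were chosen with earlier results of these data known, and no p-value was adjusted over a list alone. A further proB-like marker is not reported here. Named from the lists are the called genes with the largest and smallest fold changes and genes set by rule. Outside that rule, Ctbp1, Rag2, Il7r, Cd79b, Siglech, Ly6d, Kit, Lat, Cd4 and Pstk were named after their values were seen. Alternatives were other normalizations, filters, tests (DESeq2 1.42.0, limma-voom 3.58.1, edgeR's version 4 method), one fit of all libraries, immunoglobulin genes left out, a replicate block, each library left out and, added after seeing the data, other gene lengths. Figures were drawn with matplotlib 3.10.9.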

Additional observations from a re-analysis of the deposited data

How the results depend on the processing

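The calls of the 4 tested members were the same under every alternative run: 243 of 248 fold changes kept their direction and their side of the threshold, and the counts of members called did not change. The other 5 reversed in sign while not being called. The Ikzf2 difference between genotypes lay between -0.152 and 0.0460 when a library was left out (0.0460 without Erg-deficient replicate 2), and the Ikzf5 difference between proB and pre-proB cells was 0.0426 with total counts as library sizes, 0.00169 without immunoglobulin genes and between -0.0840 and 0.0139 when a library was left out (0.00348 without preB replicate 2, 0.0139 without proB replicate 2). The nearest to the threshold was Ikzf1 from pre-proB to proB cells, with an adjusted p (Benjamini-Hochberg) of at most 0.0466 over its 16 alternatives.

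The count of all genes called between genotypes, 151 with edgeR, was less stable. A single fit of all 8 libraries gave 442 genes, and it was 400 with DESeq2, 88 with edgeR's version 4 method, 41 with limma-voom, 279 without a filter and 10 to 401 when a library was left out (10 without Erg-deficient replicate 2, 16 without Erg-deficient replicate 1 and 401 without Erg fl/fl pre-proB replicate 2). The cause was not tested. With the replicate number as a block it was 265. The authors describe sorting from 2 mice of each genotype, so the Erg fl/fl stages may share animals. The main tests treat all libraries as independent. The labels do not say that a number marks a shared animal or day. Deviations of same-numbered libraries correlated between -0.0325 and 0.118, and the numbers were not taken as pairs. With 2 replicates per group the 95% intervals of the members between genotypes reached up to 0.36 on the log2 scale from 0, and Ikzf4 with 13 counts could not be compared.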
